A study of Mus musculus with 15 samples.

Results

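The 7 genes described here mark the Schwann cells of skin nerves: the transcription factor gene Sox10, the myelin genes Mbp, Pmp22, Mag and Prx, the calcium-binding protein gene S100b and the neurotrophin receptor gene Ngfr. They were taken by name from a table of 56059 genes of mouse skin, and all 7 were among the 18651 genes with enough reads to be tested. The genes were chosen by name with their levels and fold changes in these same libraries already known, so those values, and the calls of the fit over all genes given beside them, are a description and support nothing. The disease modelled in these mice is a scleroderma-like form of chronic graft-versus-host disease. There, immune cells from the donor harm tissues of the recipient. Mice given an allogeneic transplant stand for the disease, and mice given a syngeneic transplant serve as the comparison. Recipients of an allogeneic bone marrow transplant were dosed daily by mouth with belumosudil at 150 mg/kg plus Wnt-C59 at 5 mg/kg (called the combination here, n = 4 libraries), with Wnt-C59 alone at the same dose (n = 4) or with the vehicle, 0.4% methylcellulose (n = 3, called allogeneic). Recipients of a syngeneic transplant received the same vehicle (n = 4, called syngeneic). Dosing ran between day 21 and day 49 after transplant in all groups. Wnt-C59 blocks porcupine, an enzyme that Wnt ligands need before cells can release them, and ROCK2, a kinase, is the target of belumosudil. The strain, sex and age of the mice are not given in the sources used here, nor is it stated that each library came from its own animal, so p-values measure the spread between these libraries.

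Schwann cells wrap the axons of peripheral nerves. In skin, myelinating Schwann cells form compact myelin around thick touch fibres, while non-myelinating Schwann cells hold bundles of thin pain and autonomic fibres. SOX10 keeps the Schwann cell fate and, with EGR2, switches on myelin genes such as Mbp, Mag and Prx. Axons drive these steps through neuregulin and its receptors ERBB2 and ERBB3, and after injury Schwann cells turn to a repair state with high JUN and p75, the product of Ngfr. Several of these genes are also used outside nerves: melanocytes express Sox10 and S100b, fibroblasts Pmp22, and hair follicle cells Ngfr.

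The upstream sequences of 3 of the genes are printed because they are the genes whose levels separated the groups in different ways: Mag was higher in all allogeneic recipients than in syngeneic skin, Ngfr lay apart between treated and vehicle skin, and Prx overlapped between most groups. Each is the 250 bases before an annotated start in RefSeq on build GRCm38.p6, written 5′ to 3′ on the strand of the gene. Capitals mark a match to the SOX core ACAAAG or its reverse complement CTTTGT, or to the EGR-type sequence GNGTGGGNG or its reverse complement CNCCCACNC. The Mag window is chr7:30914923-30915172 on the minus strand, that of Prx chr7:27499074-27499323 on the plus strand and that of Ngfr chr11:95587699-95587948 on the minus strand.
Mag: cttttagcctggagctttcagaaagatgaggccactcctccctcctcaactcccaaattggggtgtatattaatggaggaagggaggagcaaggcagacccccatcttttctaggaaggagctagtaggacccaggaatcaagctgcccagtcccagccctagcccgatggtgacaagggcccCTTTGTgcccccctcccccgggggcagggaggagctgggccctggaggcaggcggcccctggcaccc
Prx: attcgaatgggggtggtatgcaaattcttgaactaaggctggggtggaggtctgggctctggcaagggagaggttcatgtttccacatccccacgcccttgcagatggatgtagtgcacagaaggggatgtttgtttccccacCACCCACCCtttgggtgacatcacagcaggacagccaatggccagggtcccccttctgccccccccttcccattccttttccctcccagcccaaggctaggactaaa
Ngfr: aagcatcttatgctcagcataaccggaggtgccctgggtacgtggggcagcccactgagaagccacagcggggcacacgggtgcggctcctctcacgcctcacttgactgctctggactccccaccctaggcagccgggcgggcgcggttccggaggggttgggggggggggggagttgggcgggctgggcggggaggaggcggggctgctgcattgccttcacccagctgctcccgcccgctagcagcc

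RefSeq gave 3 windows for Mag. The one printed and another that overlaps it share the same match, and the third, chr7:30914322-30914571, held none of the sequences searched. The printed Mag window held the SOX core on the reverse strand, a hexamer found on either strand in 16.5% of 32851 mouse upstream windows of the same length. The Prx window held the EGR-type sequence on the reverse strand, found in 12.7% of windows. The Ngfr window held neither of these in these letters. The stricter EGR sequence GCGTGGGCG, found in 0.5% of windows, was in none of the 3. The E-box CAGCTG, found in 13.0% of windows, was in the Ngfr window and is left in lower case. A match describes letters and is no evidence of binding.

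Per length of transcript, the level of the genes differed widely. Over the 15 libraries the mean was 84.1 CPM per kb for Pmp22, 23.0 for Mbp, 7.2 for Sox10, 5.44 for Ngfr, 5.24 for Prx, 2.69 for S100b and 1.64 for Mag, where CPM (cpm in edgeR) is a gene's count scaled to library size and the length is that of the longest annotated transcript. Beside the 7 were read Cdh19, a cadherin of Schwann cells, and Drp2, the membrane partner of periaxin, neither of them among the 7. Both were detected in each of the 15 libraries, Cdh19 at 1.15 to 15.7 CPM and Drp2 at 7.28 to 34.7 CPM. Detection alone does not test the label of Schwann cell, and Cdh19 did not follow the 7 in treated skin, as given below. In whole skin, fewer Schwann cells and less RNA per Schwann cell cannot be told apart.

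Treated and vehicle libraries differed in ways that the groups do not name. Totals of estimated counts ran between 18.99 M and 28.78 M in the 8 treated libraries and between 16.26 M and 20.39 M in the 7 vehicle libraries, and 44.76% to 60.62% of non-zero values in treated libraries against 31.07% to 34.39% in vehicle libraries were not whole numbers. Across genes, the Spearman rho between GC content and log2 fold change was 0.504 for Wnt-C59 against allogeneic skin and 0.541 for the combination against allogeneic skin, against −0.10 within vehicle and 0.167 within treated libraries. Genes are not independent replicates, and rho is given without a p. Treatment and any batch that follows this split cannot be told apart, so values with the trend of counts on GC content removed are printed where they change the account. Skeletal muscle differed too: 9 muscle markers summed to 33523.6, 12949.1, 2601.9 and 21.4 CPM in combination libraries 2, 3, 4 and 5, to between 17517.3 and 53514.2 CPM in Wnt-C59, between 8806.3 and 35712.7 CPM in allogeneic and between 3708.4 and 6876.3 CPM in syngeneic libraries. Numbers of treated libraries are those of the table's columns.

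Sox10, the transcription factor gene of the Schwann cell lineage, was highest under Wnt-C59 and lowest in syngeneic skin. It was at 29.5, 23.8, 14.8 and 21.6 CPM in combination libraries 2, 3, 4 and 5 and at 34.1, 31.7, 46.8 and 31.2 CPM in Wnt-C59 libraries 1, 2, 4 and 5. Vehicle libraries had 8.08, 15.9 and 11.6 CPM in allogeneic skin and 9.13, 5.52, 8.51 and 8.2 CPM in syngeneic skin. Every Wnt-C59 library lay above every combination, allogeneic and syngeneic library, combination libraries lay above the syngeneic ones and overlapped the allogeneic ones, and both vehicle groups overlapped. The log2 fold change was 1.60 (SE 0.28) for Wnt-C59 against allogeneic skin, 0.92 (SE 0.27) for the combination against allogeneic skin and 0.60 (SE 0.27) for allogeneic against syngeneic skin. Its transcript has a GC content of 61.8%, and with the GC trend removed these values were 0.61, −0.09 and 0.90, so the higher level under the combination than in allogeneic skin did not hold. Without allogeneic library 1 it was 0.71 and no longer called, and the value of allogeneic against syngeneic skin was 0.81 and called. Melanocytes, another source of Sox10, gave 10 markers that summed to 18 to 133 CPM in combination, 31.4 to 67.0 CPM in Wnt-C59, 57.1 to 71.7 CPM in allogeneic and 111 to 236 CPM in syngeneic libraries. Combination library 5, at 133 CPM, lay above syngeneic library 4, at 111 CPM. The part of melanocytes in the level of Sox10 was not tested.

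Mbp encodes myelin basic protein, which holds the inner faces of compact myelin together. It was at 225, 89.5, 84.7 and 89.3 CPM in combination libraries 2, 3, 4 and 5 and at 134, 196, 214 and 132 CPM in Wnt-C59 libraries 1, 2, 4 and 5. Vehicle libraries had 79.5, 120 and 94.5 CPM in allogeneic skin and 49.1, 41.6, 44.2 and 58.4 CPM in syngeneic skin. All libraries of the 3 allogeneic recipient groups lay above all syngeneic ones. Wnt-C59 libraries lay above allogeneic ones, and combination libraries overlapped both. The log2 fold change of allogeneic against syngeneic skin was 1.02 (SE 0.31) and stayed at 1.02 with the GC trend removed. It was 0.88 without allogeneic library 2 and 0.98 without syngeneic library 3, and no longer called in either case. Against allogeneic skin it was 0.79 (SE 0.32) for Wnt-C59, a value that several alternatives called, and 0.32 (SE 0.32) for the combination. Combination library 2 alone set the higher combination mean, since the other 3 averaged 87.8 ± 2.72 CPM (SD, n = 3) against 98.0 ± 20.5 CPM in allogeneic skin (SD, n = 3).

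Mag encodes a glycoprotein of the innermost myelin wrap that faces the axon, and it had the widest gap between recipients of both kinds of graft. Its level was 9.7, 4.71, 3.16 and 4.03 CPM in combination libraries 2, 3, 4 and 5, 4.56, 6.84, 8.02 and 5.66 CPM in Wnt-C59 libraries 1, 2, 4 and 5, 2.43, 3.83 and 3.38 CPM in allogeneic libraries and 0.505, 1.3, 0.824 and 0.882 CPM in syngeneic libraries. The lowest of the allogeneic recipients thus had more Mag than the highest syngeneic library. Allogeneic skin averaged 3.21 ± 0.716 CPM (SD, n = 3) against 0.877 ± 0.326 CPM in syngeneic skin (SD, n = 4), a log2 fold change of 1.87 (SE 0.40), with 1.70 to 2.14 when single libraries were left out and 2.00 with the GC trend removed. Against allogeneic skin it was 0.96 (SE 0.39) for Wnt-C59 and 0.75 (SE 0.39) for the combination, and 0.26 and −0.03 with the GC trend removed.

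Pmp22, which encodes a small membrane protein of compact myelin, separated treated from vehicle skin and not the vehicle groups from each other. It was at 324, 192, 153 and 218 CPM in combination libraries 2, 3, 4 and 5 and at 155, 233, 252 and 184 CPM in Wnt-C59 libraries 1, 2, 4 and 5. Vehicle libraries had 75.6, 95.0 and 93.5 CPM in allogeneic skin and 78.9, 63.4, 89.8 and 89.1 CPM in syngeneic skin. The lowest treated library, at 153 CPM, stood above the highest vehicle library, at 95.0 CPM. The log2 fold change was 1.33 (SE 0.24) for the combination and 1.23 (SE 0.24) for Wnt-C59 against allogeneic skin, 1.45 and 1.33 with the GC trend removed, and 0.13 (SE 0.23) for allogeneic against syngeneic skin. Fibroblasts also express Pmp22, and 6 fibroblast markers summed to 2540.4 to 5462.1 CPM in combination, 2588.1 to 6091.8 CPM in Wnt-C59, 972 to 1666.8 CPM in allogeneic and 3013.6 to 7678.4 CPM in syngeneic libraries. Their part in the level of Pmp22 was not tested.

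Prx encodes periaxin, a scaffold at the outer membrane of myelinating Schwann cells. It was at 60.0, 26.3, 20.0 and 22.3 CPM in combination libraries 2, 3, 4 and 5, 34.8, 50.2, 49.7 and 24.8 CPM in Wnt-C59 libraries 1, 2, 4 and 5, 15.4, 30.3 and 24.8 CPM in allogeneic libraries and 14.0, 15.6, 20.3 and 18.2 CPM in syngeneic libraries. Wnt-C59 libraries lay above the syngeneic ones, and every other pair of groups overlapped. The log2 fold change was 0.46 (SE 0.36) for allogeneic against syngeneic skin, 0.76 (SE 0.37) for Wnt-C59 and 0.46 (SE 0.37) for the combination against allogeneic skin. The last was −0.04 without combination library 2 and −0.33 with the GC trend removed.

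S100b, a calcium-binding protein used to stain Schwann cells, overlapped between most groups. It was at 4.62, 2.31, 3.96 and 3.08 CPM in combination libraries 2, 3, 4 and 5, 4.0, 6.05, 8.02 and 6.08 CPM in Wnt-C59 libraries 1, 2, 4 and 5, 1.58, 5.39 and 2.99 CPM in allogeneic libraries and 2.06, 2.6, 3.98 and 3.22 CPM in syngeneic libraries. Wnt-C59 libraries lay above the syngeneic ones by a narrow margin, and all other pairs of groups overlapped. The log2 fold change of allogeneic against syngeneic skin was 0.16 (SE 0.39) and ran between −0.35 and 0.50 when single libraries were left out. S100b overlaps Dip2a on the opposite strand, and Prx an antisense gene, Gm15541. No source used here says whether reads were counted by strand, so reads of such partners cannot be told apart.

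Ngfr, the gene of the p75 neurotrophin receptor, was the one member with a lower mean in allogeneic than in syngeneic skin. It was at 27.7, 28.7, 25.9 and 19.9 CPM in combination libraries 2, 3, 4 and 5 and at 27.3, 24.8, 30.2 and 21.1 CPM in Wnt-C59 libraries 1, 2, 4 and 5. Vehicle libraries had 6.07, 13.2 and 6.6 CPM in allogeneic skin and 10.3, 12.5, 12.6 and 14.2 CPM in syngeneic skin. All 8 treated libraries lay above all 7 vehicle libraries, while allogeneic library 2 lay within the syngeneic range. The log2 fold change against allogeneic skin was 1.57 (SE 0.25) for the combination and 1.59 (SE 0.25) for Wnt-C59, and 0.76 and 0.81 with the GC trend removed. It was −0.52 (SE 0.25) for allogeneic against syngeneic skin and −0.93, then called lower, without allogeneic library 2. Hair follicle markers, 11 in number, summed to 2378.8 to 34484.3 CPM in combination, 3233.9 to 5455.5 CPM in Wnt-C59, 68.9 to 182 CPM in allogeneic and 6205.7 to 18218.8 CPM in syngeneic libraries. Krt15, a keratin of the follicle bulge and of basal epidermis, gave nearly all of the sum in all Wnt-C59 libraries (3146.1 to 5353.1 CPM) and in combination libraries 2 and 3 (2345.8 and 2323.5 CPM). The inner root sheath keratin Krt71 was at 0.564 to 0.76 CPM under Wnt-C59, at 0.659 and 0.914 CPM in combination libraries 2 and 3, at 15144 and 2001.7 CPM in combination libraries 4 and 5, at up to 0.169 CPM in allogeneic and at 2365 to 6650.5 CPM in syngeneic libraries. The part of hair follicles in the level of Ngfr was not tested.

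**Figure D1:**
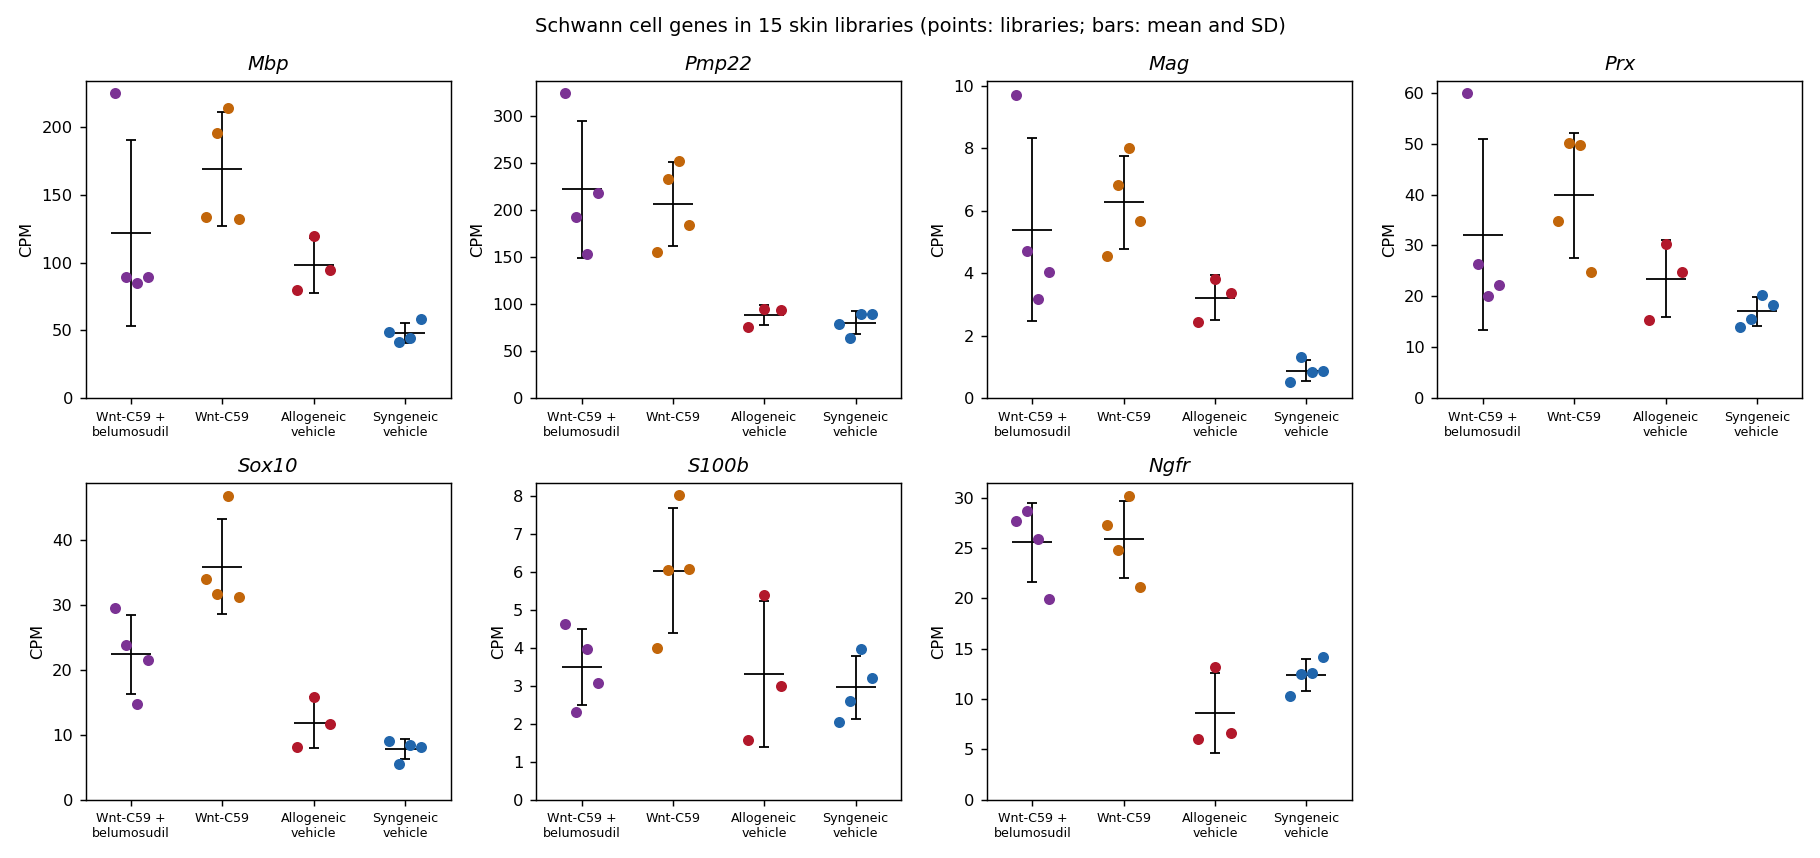
Level in CPM (vertical axes, linear) of the 7 genes in each library, by group from the combination to syngeneic skin; points are libraries and bars the mean and SD (n = 4, 4, 3 and 4). Mag in all allogeneic recipients lies above the syngeneic libraries, Pmp22 and Ngfr lie apart between treated and vehicle skin, and combination library 2 stands above its group for Mbp and Prx.

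By the edgeR quasi-likelihood test with Benjamini-Hochberg adjustment, a gene was called at an adjusted p under 0.05 over all 18651 genes. In allogeneic against syngeneic skin 2 of the 7 genes were called higher (Mag and Mbp), beside 14.6% of all genes called higher and 29.8% called in either direction. Their ranges lay above, without overlap, for 2 of 7, beside 16.7% of all genes. With the GC trend removed 3 were called higher, Sox10 being the third, beside 16% of all genes. The median log2 fold change of the 7 was 0.46, against −0.07 over all genes.

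Against allogeneic skin, 3 of 7 were called higher under the combination (Ngfr, Pmp22 and Sox10), beside 27.1% of all genes, and the same 3 under Wnt-C59, beside 24.6%. Ranges lay above without overlap for 2 of 7 under the combination, beside 25.6% of all genes, and for 5 of 7 under Wnt-C59, beside 26.4%. With the GC trend removed, Ngfr and Pmp22 were called under both, beside 22.6% of all genes for the combination and 19.5% for Wnt-C59. Both comparisons share the allogeneic libraries.

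None of the 7 was called between the combination and Wnt-C59, where 0.231% of all genes were by edgeR, and none with the GC trend removed, where 0.316% were. Of the 7, Sox10 and S100b had an unadjusted p under 0.05, and DESeq2 and limma-voom called 0 of them. Sox10 was the 1 member whose combination libraries all lay below the Wnt-C59 libraries, beside 7.28% of all genes.

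Against syngeneic skin, 6 of 7 were called higher under the combination (all but S100b), beside 26.9% of all genes, and 7 of 7 under Wnt-C59, beside 26%. Ranges lay above without overlap for 5 of 7 under the combination, beside 23.7% of all genes, and for 7 of 7 under Wnt-C59, beside 24.6%. With the GC trend removed 4 were called under the combination and 5 under Wnt-C59, beside 23.1% and 22.3% of all genes, and Ngfr and Prx were lost in both. Prx under the combination was 0.92 on the log2 scale, and 0.43 and no longer called without combination library 2. S100b under Wnt-C59 was 1.02, and 0.86 to 0.97 and no longer called without Wnt-C59 library 4 or syngeneic libraries 1 or 2. Since the genes were chosen with these results known, nothing is read from the counts, and both comparisons share the syngeneic libraries.

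**Figure D2:**
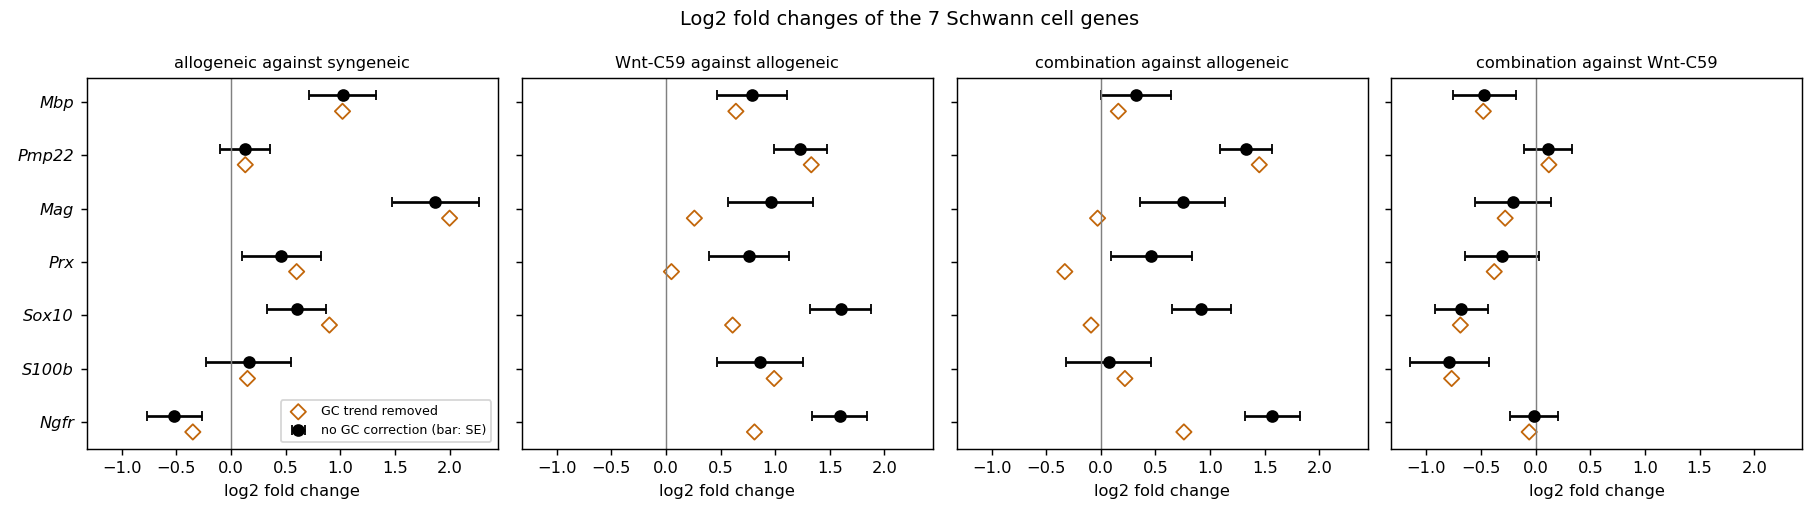
Log2 fold change (horizontal axes) of each gene in 4 comparisons, with its SE (filled circles and bars) and after the trend on GC content was removed (open diamonds). Mag and Mbp keep 2.00 and 1.02 in allogeneic against syngeneic skin, while Sox10 moves by most in both comparisons of treated with vehicle skin.

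The other genes of the pathway were read from lists. These lists were also chosen with earlier results of these data known, and some genes named were picked after their values were seen. Their calls and adjusted p are therefore a description too. Allogeneic skin was set against syngeneic skin under the same vehicle to show which listed genes differed in whole skin. Of 16 further myelin and myelinating Schwann cell genes, 15 were tested, of which 5 were called higher, 2 lower and 8 did not pass. Of all genes, 14.6% were called higher and 29.8% in either direction. The median log2 fold change of the list was 0.73, against −0.07 over all genes. Gjb1, the gap junction protein of myelin channels, was at 3.16, 3.89 and 4.68 CPM in allogeneic libraries against 0.459, 0.278, 0.137 and 0.705 CPM in syngeneic libraries (log2 fold change 3.28, SE 0.81, edgeR adjusted p = 0.0075). Drp2, the membrane partner of periaxin, was at 19.0, 34.7 and 26.2 CPM in allogeneic libraries against 13.7, 9.14, 7.28 and 10.9 CPM in syngeneic libraries (log2 fold change 1.37, SE 0.38, edgeR adjusted p = 0.015). The other 3 that rose were Mal, a proteolipid of membrane sorting, with 0.99 on the log2 scale (edgeR adjusted p = 0.025), the myelin enzyme Cnp with 0.85 (0.038) and Ncmap, a protein of non-compact myelin, with 1.06 (0.04). Which cells of the skin gave these 5 rises was not tested.

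The 2 genes of that list that fell are also used by other skin cells. Egr2, the transcription factor of myelination that hair follicles and immune cells also use, averaged 29.6 ± 7.12 CPM in allogeneic skin (SD, n = 3) and 63.7 ± 8.41 CPM in syngeneic skin (SD, n = 4; log2 fold change −1.10, edgeR adjusted p = 3e-04). Fa2h, which makes hydroxylated lipids for myelin and for sebum and hair, averaged 2.51 ± 0.77 CPM in allogeneic skin and 153 ± 61.6 CPM in syngeneic skin (log2 fold change −5.92, SE 0.40, edgeR adjusted p = 8.9e-07). Beside them all 11 hair follicle markers fell in allogeneic skin, with sums of 68.9 to 182 CPM against 6205.7 to 18218.8 CPM in syngeneic skin, and their part in these changes was not tested.

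Of 16 genes of all or of non-myelinating Schwann cells, 4 rose and 2 fell in allogeneic against syngeneic skin, and 10 did not pass. This stood beside 14.6% of all genes called higher and 29.8% called in either direction. The median log2 fold change of the 16 was 0.20, against −0.07 over all genes. Cdh19, the Schwann cell cadherin, was at 13.3, 14.1 and 15.7 CPM in allogeneic libraries and at 8.21, 6.08, 5.08 and 8.99 CPM in syngeneic libraries (log2 fold change 1.02, SE 0.29, edgeR adjusted p = 0.016). Scn7a, a sodium channel-like gene of non-myelinating Schwann cells and sensory neurons, was at 33.5, 31.4 and 40.5 CPM in allogeneic against 23.3, 15.7, 14.4 and 21.2 CPM in syngeneic libraries (log2 fold change 0.91, SE 0.23, edgeR adjusted p = 0.0084). Foxd3, a transcription factor of the neural crest, rose by 1.01 (edgeR adjusted p = 0.025) and Art3, a mono-ADP-ribosyltransferase family gene, by 1.12 (0.0024). For each of these 4 the groups did not overlap. Gfra3, the artemin co-receptor, fell by 1.84 on the log2 scale (edgeR adjusted p = 0.0011), as did Sostdc1, a secreted BMP and Wnt antagonist that hair follicles also make, by 1.22 (0.016). Beside these rises the summed muscle markers lay at 8806.3 to 35712.7 CPM in allogeneic libraries, all above the 3708.4 to 6876.3 CPM of syngeneic libraries, although none of the 9 markers was called by edgeR and none reached 0.05 before adjustment. Other cell types moved as well: 6 of 7 endothelial markers rose (median log2 fold change 1.24, sums of 209 to 307 CPM in allogeneic against 94.5 to 129 CPM in syngeneic libraries). All 8 T cell markers rose (3.22, sums of 73.5 to 112 against 8.81 to 14.7 CPM), as did 5 of 6 macrophage markers (2.48, sums of 2371.9 to 3666.5 against 338 to 554 CPM). Their part in the rises of Schwann cell genes was not tested.

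**Figure D3:**
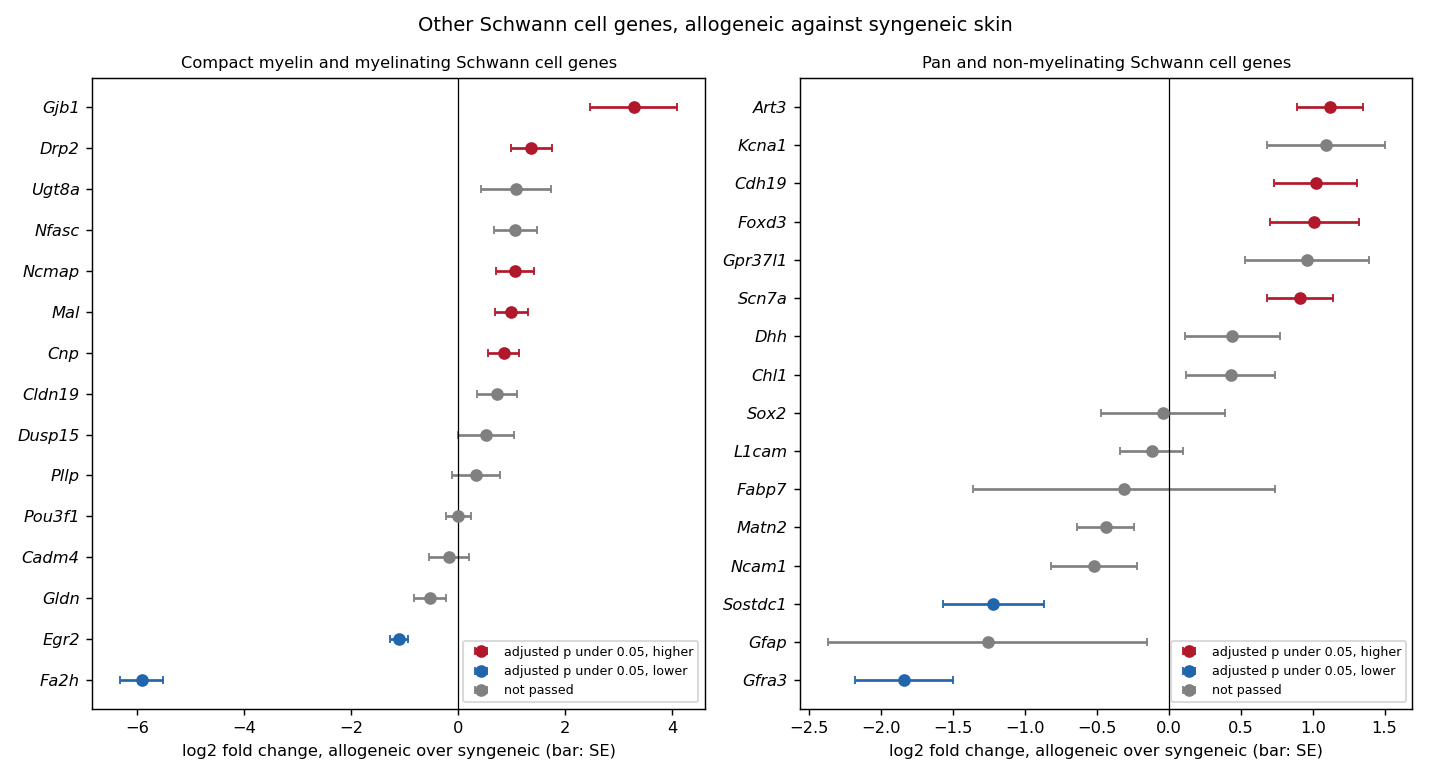
Log2 fold change of allogeneic over syngeneic skin (horizontal axes) with its SE for 15 myelinating (left) and 16 other Schwann cell genes (right); colours show genes higher, lower or not past an adjusted p of 0.05. Gjb1, Drp2, Cdh19 and Scn7a lie to the right of 0 and Fa2h far to the left at −5.92.

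Genes listed for signals between axon and Schwann cell were called in both directions in allogeneic against syngeneic skin. Their levels are those of whole skin, and which cells gave the differences was not tested. Of 8 neuregulin pathway genes, 2 rose and 3 fell. For this and the next lists, 14.6% of all genes were called higher and 29.8% in either direction. Adam17, a protease that sheds neuregulin, rose by 0.90 (SE 0.17, edgeR adjusted p = 0.0014) and Lgi4, the Schwann cell ligand needed for myelination, by 1.10 (SE 0.28, 0.0078). The receptor gene Erbb2 fell by 0.44 (SE 0.14, edgeR adjusted p = 0.033), Adgrg6, an adhesion receptor that starts myelination, fell by 0.83 (0.027) and Bace1, a protease that activates neuregulin, fell by 0.56 (0.034). Among 8 repair genes, Jun rose by 0.74 (edgeR adjusted p = 0.0066) and Artn, which encodes artemin, by 1.46 (0.046), while Bdnf fell by 1.04 (0.035), and Shh and Olig1 fell as well (edgeR adjusted p = 0.0038 and 0.0016). Olig1 had no counts in allogeneic libraries and averaged 0.514 CPM in syngeneic libraries, and Shh averaged 0.0188 CPM in allogeneic and 21.8 CPM in syngeneic skin beside the hair follicle loss above. Among 14 neurotrophin and GDNF family genes, 1 rose, Artn, and 4 fell. This list shares Artn, Bdnf and Gdnf with the repair genes and Gfra3 with the 16 Schwann cell genes above. A call of these genes therefore counts in both lists, here and in the comparisons below. Ret, the GDNF family receptor, averaged 2.8 CPM in allogeneic against 24.6 CPM in syngeneic skin (log2 fold change −3.13, SE 0.59, edgeR adjusted p = 0.0014). Of 14 genes of axons and sensory neurons 7 were tested, and 1, Tubb3, fell (log2 fold change −2.05, edgeR adjusted p = 0.034). The cell bodies of sensory axons lie in ganglia outside the skin, and the list summed to 10.6 to 15.6 CPM in allogeneic and 22.8 to 38.7 CPM in syngeneic libraries. Tubb3 gave most of the syngeneic sums, with 5.36 to 6.59 CPM in allogeneic and 14.6 to 32.9 CPM in syngeneic libraries. Hair follicle markers fell in the same comparison, and their part in Ret and Tubb3 was not tested.

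Wnt-C59 was set against vehicle in allogeneic skin to show which genes differed, with the split between treated and vehicle libraries inside the comparison. Of the 15 myelinating genes tested, 5 rose and 0 fell, and 4 and 0 did with the GC trend removed. Of all genes, 24.6% were called higher, and 19.5% with the trend removed. In either direction 9481 of 18651 genes were called, 4586 of them higher. With the trend removed 7559 were called, 3631 of them higher. Pllp, a myelin proteolipid, rose by 1.94 (edgeR adjusted p = 0.0032) and Cldn19, a claudin of Schwann cell junctions, by 1.46 (0.005), and both passed with the trend removed (0.012 and 0.024). Egr2 averaged 87.8 ± 3.08 CPM under Wnt-C59 (SD, n = 4) and 29.6 ± 7.12 CPM in allogeneic skin (SD, n = 3; log2 fold change 1.57, edgeR adjusted p = 1.2e-05). Fa2h rose by 7.27 (edgeR adjusted p = 1e-07), with hair follicle sums of 3233.9 to 5455.5 CPM under Wnt-C59 against 68.9 to 182 CPM in allogeneic skin, although 2 of the 11 markers passed. Krt15 gave nearly all of the sum under Wnt-C59, as described for Ngfr, and the part of follicle or epidermal cells was not tested.

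Non-myelinating genes were called in both directions under Wnt-C59. Of 16 tested, 7 rose and 3 fell, and 4 and 1 did with the GC trend removed. The shares of all genes called higher were 24.6%, and 19.5% with the trend removed. Called in either direction were 9481 of 18651 genes, 4586 of them higher, and 7559 with the trend removed, 3631 of them higher. Kcna1, an axonal potassium channel gene, is held in this list, and which cells gave its level was not tested. Cdh19, Scn7a and Kcna1 fell by 1.06, 1.33 and 1.51 on the log2 scale (edgeR adjusted p = 0.007, 0.00034 and 0.007). With the trend removed they were at 0.17, −0.38 and −1.55, and of the 3 Kcna1 passed (adjusted p = 0.0075). Gfra3 rose to 11.0 ± 2.39 CPM under Wnt-C59 (SD, n = 4), against 2.38 ± 1.18 CPM in allogeneic skin (SD, n = 3; log2 fold change 2.21, edgeR adjusted p = 1.4e-04), and passed with the trend removed (0.0024). Of the 14 neurotrophin and GDNF family genes, 10 rose and 1 fell, against 7 and 1 with the trend removed: the ligand genes Gdnf and Ntf3 rose by 1.95 (edgeR adjusted p = 0.001) and 2.48 (0.0018), and passed with the trend removed (0.0021 and 0.0024). In the neuregulin pathway Erbb3, the receptor subunit that binds neuregulin, fell by 0.88 (edgeR adjusted p = 0.0076) and Adam17 by 1.13 (0.00013).

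The combination was set against vehicle in allogeneic skin in the same way. Of the 15 myelinating genes 4 rose and 1 fell, against 2 and 1 with the GC trend removed. Beside these and the counts below, 27.1% of all genes were called higher, and 22.6% with the trend removed. In either direction 10168 of 18651 genes were called, 5055 of them higher. With the trend removed 8187 were called, 4206 of them higher. Egr2 averaged 122 ± 16.1 CPM under the combination (SD, n = 4) and 29.6 ± 7.12 CPM in allogeneic skin (SD, n = 3; log2 fold change 2.04, edgeR adjusted p = 2.6e-06). Of the 16 other Schwann cell genes 6 rose and 4 fell, against 4 and 3 with the trend removed. Cdh19 was at 1.78, 1.15, 2.15 and 3.3 CPM in combination libraries against 13.3, 14.1 and 15.7 CPM in allogeneic libraries (log2 fold change −2.77, SE 0.30, edgeR adjusted p = 8.9e-06), and Scn7a at 8.96, 8.61, 5.99 and 5.61 CPM against 33.5, 31.4 and 40.5 CPM (log2 fold change −2.27, SE 0.24, adjusted p = 7.1e-06). Both passed with the trend removed, at −1.33 (adjusted p = 0.00061) and −1.10 (0.0019). Kcna1 was at 0.853, 0.721, 1.02 and 0.769 CPM in combination libraries against 4.07, 6.35 and 9.08 CPM in allogeneic libraries (log2 fold change −2.95, edgeR adjusted p = 7e-05), and at −2.99 with the trend removed. Of the 14 neurotrophin and GDNF family genes 9 rose and 0 fell, against 9 and 2 with the trend removed. Ret averaged 22.5 CPM under the combination against 2.8 CPM in allogeneic skin (log2 fold change 3.00, SE 0.59, edgeR adjusted p = 0.00075). It passed with the trend removed (adjusted p = 0.002). By library Ret was at 8.61, 10.9, 56.9 and 13.6 CPM in combination libraries 2, 3, 4 and 5. Combination library 4 also had the highest hair follicle sum, 34484.3 CPM, and the part of hair follicles in Ret was not tested.

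Belumosudil was the difference between the combination and Wnt-C59, a comparison within the treated libraries. Here 43 of 18651 genes were called (0.231%), 24 of them lower (0.129%). The count was 17, 1, 45 and 29 without combination libraries 2, 3, 4 and 5. It was 3, 3, 12 and 5 without Wnt-C59 libraries 1, 2, 4 and 5. Cdh19 was among the 43. Cdh19 was at 1.78, 1.15, 2.15 and 3.3 CPM in combination libraries and at 7.84, 7.04, 5.62 and 7.03 CPM in Wnt-C59 libraries, without overlap (log2 fold change −1.71, SE 0.28, edgeR adjusted p = 0.03). The edgeR call is near the threshold. Cdh19 passed with the trend removed (−1.50, adjusted p = 0.022), by limma-voom (−1.8, adjusted p = 0.025) and by DESeq2 (−1.71, adjusted p = 3.1e-07). DESeq2 called 1520 genes in this comparison. The edgeR call of Cdh19 was lost in a fit of both groups alone (adjusted p = 0.07). It was also lost without each Wnt-C59 library in turn and without combination libraries 2 or 3, with adjusted p up to 0.09. When single libraries were left out, the log2 fold change lay between −2.01 and −1.51.

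Other genes of the Schwann cell lists leaned the same way between the combination and Wnt-C59 without passing. Of the 15 myelinating genes 13 had a log2 fold change below 0 (median −0.38), as had 15 of the 16 others (median −0.40), against a median of −0.01 over all genes. For 6 of the 16 others, Cdh19 among them, all combination libraries lay below all Wnt-C59 libraries, beside 7.28% of all genes. The rest were L1cam, Sox2, Scn7a (log2 fold change −0.94, edgeR adjusted p = 0.077), Foxd3 (−1.14, 0.078) and Kcna1 (−1.44, 0.096). Sox10, at −0.68 (SE 0.24), did not overlap either, and is described above. Muscle markers stood below Wnt-C59 in the combination for all 9 genes (median log2 fold change −1.51), none of which passed. So did endothelial markers, for 7 of 7 genes (median −0.41), none of which passed. The part of muscle and vessels in the lower values was not tested. Of the myelinating genes, Egr2 was the 1 whose groups did not overlap, and it was higher under the combination, with 103 to 142 CPM in combination and 84.7 to 91.9 CPM in Wnt-C59 libraries (log2 fold change 0.48, edgeR adjusted p = 0.12).

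**Figure D4:**
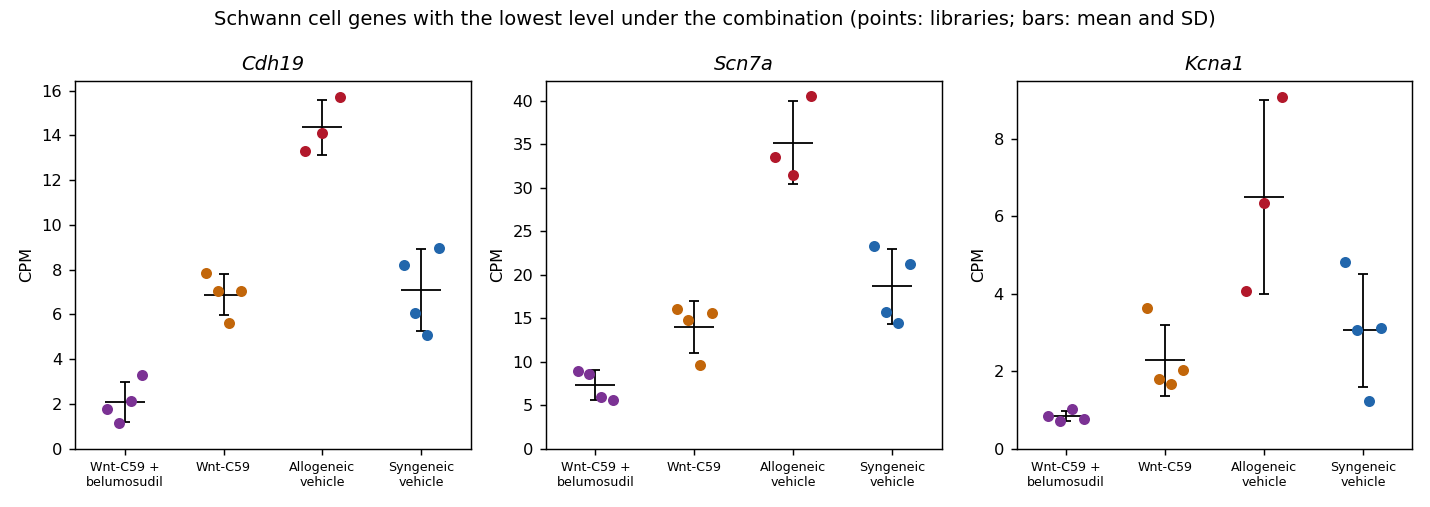
Level in CPM (vertical axes, linear) of Cdh19, Scn7a and Kcna1 in each library, by group; points are libraries and bars the mean and SD (n = 4, 4, 3 and 4). All 3 genes have their highest mean in allogeneic vehicle skin and their lowest under the combination, where Cdh19 lies between 1.15 and 3.3 CPM against 13.3 to 15.7 CPM in allogeneic libraries.

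Mbp did not keep a fixed ratio to Cdh19. The ratio of Mbp to Cdh19 within a library was 126, 77.5, 39.4 and 27.1 in combination libraries 2, 3, 4 and 5, 17.1, 27.9, 38.0 and 18.8 in Wnt-C59 libraries 1, 2, 4 and 5, 5.97, 8.52 and 6.01 in allogeneic libraries and 5.98, 6.85, 8.7 and 6.5 in syngeneic libraries. All treated libraries thus lay above all vehicle libraries, and both vehicle groups overlapped. GC content is 51.0% for Mbp and 37.4% for Cdh19, and the split between treated and vehicle libraries lies in this ratio too.

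Likeness to other genes was described over the libraries. On log2 CPM over the 15 libraries, the gene most like Mbp among 12108 compared was Mal (Pearson r = 0.96). By the same measure the nearest genes were Rras for Pmp22 (0.98), Cdh13 for Sox10 (0.98), Eral1 for Ngfr (0.97), Fez2 for Mag (0.96) and Dyrk1b for S100b (0.91), and Sfrp5 was among the 3 nearest for Prx (0.93). By deviations from group means the nearest were Cldn19 for Pmp22 (0.94), H2-DMb2 for Sox10 (0.89), Mrpl57 for Ngfr (0.90), Slc41a3 for Mag (0.86), Wbp2 for S100b (0.96) and Sfrp5 for Prx (0.98), and Dnase1l1 was among the 3 nearest for Mbp (0.91). These are descriptions over libraries that share depth and composition, without a p. In each group the library with the highest muscle sum had the most Mbp, for example Wnt-C59 library 4 with 53514.2 CPM of muscle markers and 214 CPM of Mbp, and allogeneic library 2 with 35712.7 and 120 CPM. At a like muscle sum, Wnt-C59 library 1 (17517.3 CPM) had 134 CPM of Mbp and 34.1 CPM of Sox10, against 94.5 and 11.6 CPM in allogeneic library 3 (16615.6 CPM). Combination library 5, with 21.4 CPM of muscle markers, had 89.3 CPM of Mbp and 21.6 CPM of Sox10, more than any syngeneic library. The part of muscle in the differences between groups was not tested.

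**Figure D5:**
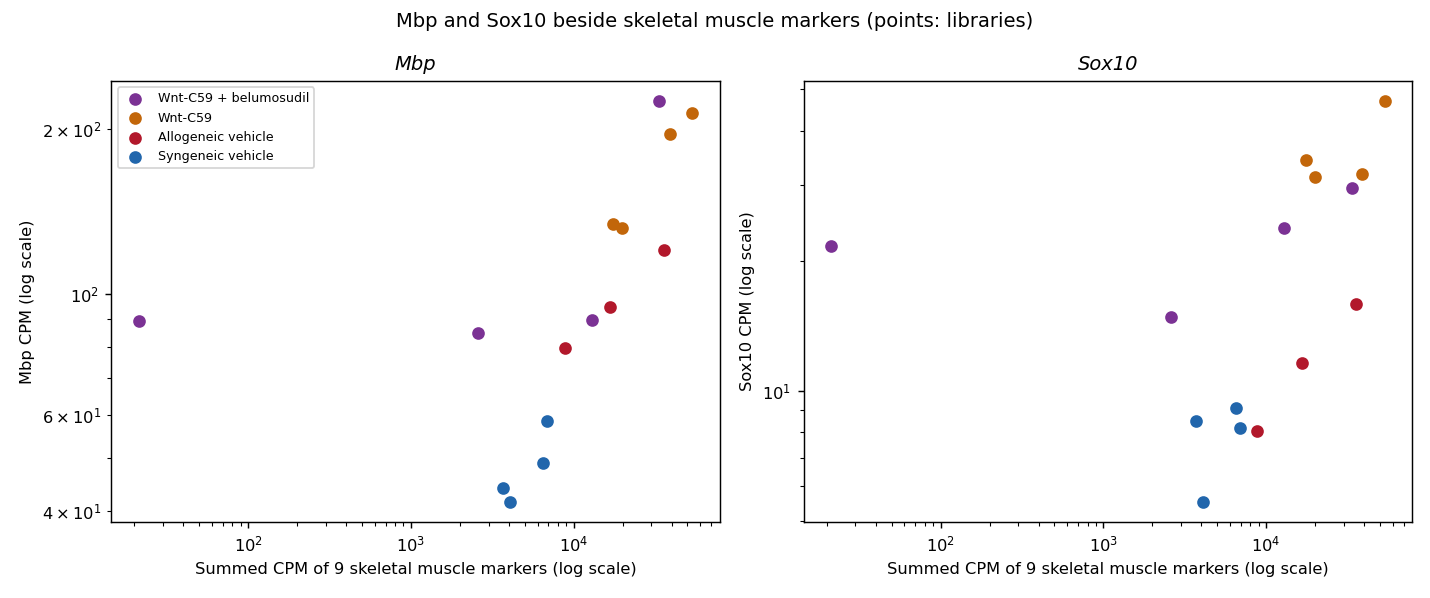
Level of Mbp (left) and Sox10 (right) in CPM against the summed CPM of 9 skeletal muscle markers, both axes on a log scale; points are libraries, coloured by group. In each group the library with the highest muscle sum has the most Mbp, and combination library 5 lies far to the left at 21.4 CPM of muscle markers with 89.3 CPM of Mbp.

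The treated groups were also set against syngeneic skin. Of the 15 myelinating genes, 9 rose and 0 fell under the combination and 11 rose and 0 fell under Wnt-C59. With the GC trend removed 6 and 8 rose. Of all genes, 26.9% and 26% were called higher, and 23.1% and 22.3% with the trend removed. In either direction 10081 and 9898 of 18651 genes were called, 5013 and 4854 of them higher. With the trend removed these counts were 8252 and 8441, with 4304 and 4157 higher. Cldn19 averaged 6.42 CPM under the combination against 2.44 CPM in syngeneic skin (log2 fold change 1.40, SE 0.34, edgeR adjusted p = 0.0033), and 11.2 CPM under Wnt-C59 against the same syngeneic libraries (log2 fold change 2.20, SE 0.35, edgeR adjusted p = 0.00017). Cnp averaged 41.0 CPM under the combination against 17.5 CPM in syngeneic skin (log2 fold change 1.23, SE 0.27, edgeR adjusted p = 0.0016), and 51.8 CPM under Wnt-C59 (log2 fold change 1.57, SE 0.28, edgeR adjusted p = 0.00035). All 4 passed with the trend removed (adjusted p = 0.021, 0.00058, 0.018 and 0.0017). Of the 16 others, 5 rose and 4 fell under the combination and 5 rose and 0 fell under Wnt-C59. With the trend removed 4 rose and 1 fell under the combination and 6 rose and 0 fell under Wnt-C59, and Cdh19 was among the losses under the combination (log2 fold change −0.38, adjusted p = 0.19).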

How the data were processed

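The data are 15 RNA-seq libraries of mouse skin. Values in the deposited table are estimated counts for each gene, unscaled and partly fractional, per the file headers. The submitters' processing notes name FastQC, Trim Galore, HISAT2, featureCounts and build GRCm39, without versions; which of them gave the fractions, and any strand setting, are not given in the sources used here. Vehicle columns name their group and number. Wnt-C59 columns were matched by name, and combination columns, whose code no label spells out, as the group of 4 left over; treated libraries carry the column numbers, not those of the sample titles.

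Symbols were matched for 51276 of 56059 genes (91.5%) through GENCODE release M21 on GRCm38, which also gave transcript lengths and GC content (longest transcript). It is not the build of the study and gave no coordinates. Upstream sequences came from RefSeq on GRCm38.p6, where 5 of the 7 genes matched. The counts were rounded, filtered by filterByExpr and fitted with edgeR 4.0.16 in R 4.3.3 (TMM scaling, robust quasi-likelihood, 4 groups in 1 fit). The design had assumed whole counts. CPM was computed from TMM-scaled totals. Every adjusted p is from edgeR, Benjamini-Hochberg adjusted over 18651 genes, unless another tool (limma 3.58.1, DESeq2 1.42.0) is named. The GC trend was removed per library with a lowess curve. The fit was tested on simulated data.

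The members and gene lists were chosen with earlier results of these data known. Some genes of the lists are not reported here and are left out of the lists' counts and medians. Named were the 7 genes throughout, and of each other list in each comparison up to 4 called genes by adjusted p, or the 1 with the smallest if none was called; the text prints part of these. Likeness was ranked by Pearson r of log2 CPM (prior count 2), and of its deviations from group means, among genes averaging 5 CPM or more, without predicted or clone names, 3 per gene, part of which are printed. Outside the rule, and chosen after their values were seen, are Drp2, Mal, Cnp, Ncmap, Foxd3, Sostdc1, Bace1 and Artn in allogeneic against syngeneic skin, Cdh19 and Kcna1 in Wnt-C59 against allogeneic skin, and Scn7a, Foxd3, Kcna1, L1cam, Sox2 and Egr2 in the combination against Wnt-C59, and the single hair keratins. Alternatives were other scalings, no filter, DESeq2, limma-voom, fits of the compared groups alone, removal of the GC trend, a replicate block and leaving out each library.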

Additional observations from a re-analysis of the deposited data

Results flagged for a closer look

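Combination library 2 stood apart from the other 3 libraries of its group for 2 genes, with a gap to the nearest library that passed Dixon's 95% critical value for 4 samples. Mbp was at 225 CPM there and Prx at 60.0 CPM, the highest of the group each time. Chance flags about 1 in 20 groups. The same library had the highest muscle marker sum of the group, 33523.6 CPM, and the largest total of all libraries, 28.78 M estimated counts, and the part of either was not tested. Without it the combination averaged 87.8 ± 2.72 CPM for Mbp and 22.9 ± 3.19 CPM for Prx (SD, n = 3).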

How the results depend on the processing

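Over the alternatives run, results of single members stayed on the same side of the threshold in 582 cases. They gained a call in 17, lost one in 16, and in 1 a called value changed sign. Uncalled values could change sign within the 582, as Prx did in the combination against allogeneic skin (−0.04 to 0.7 with libraries left out). Removing the GC trend turned Sox10 to −0.09, Erbb2 to −0.32 and Cd3g to 0.47 in the combination against allogeneic skin, and Cdh19 to 0.17 in Wnt-C59 against allogeneic skin (−1.06 with the trend kept). Members called in Wnt-C59 against allogeneic skin numbered 3, against 5 with upper quartile scaling, 5 with DESeq2, 6 with limma-voom and 5 in a fit of the 2 groups. Between the combination and Wnt-C59, 43 genes were called by edgeR, against 1520 by DESeq2, 65 by limma-voom and 18 in a fit of the 2 groups; the cause was not tested. With single libraries left out that count ran from 1 to 45, and the members called from 1 to 3 in allogeneic against syngeneic skin and from 3 to 5 in Wnt-C59 against allogeneic skin. A replicate block on the numbers 1 to 3 gave 2869 calls in allogeneic against syngeneic skin, against 5556; that fit also leaves out syngeneic library 4 and the treated groups, and same-numbered libraries did not deviate together (r = −0.07, −0.09 and −0.03), so the numbers do not pair them. Treated columns carry no label numbers, so no block was fitted there. Other scalings moved the median of all genes by at most 0.05 on the log2 scale.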
